A study of Mus musculus with 18 samples.

Results

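*Fto* and the 8 genes named *Alkbh1* to *Alkbh8* form a family of 9 genes, and their values are described here in the cerebral cortex of mouse embryos at embryonic day 15.5 (E15.5). The genes were taken by symbol from the count and expression tables, through their Ensembl identifiers, and all 9 were found among the 55153 genes of the RNA-seq tables and among the 14348 genes with a Ribo-seq count in every library. No measured value was used to choose them, although the genes were picked with earlier results of these data known. All 9 passed the filter on low counts in every comparison, where the lowest counts were 67 reads in RNA-seq and 20 in Ribo-seq, both for *Alkbh2*.

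Embryos of 3 groups, labelled C57BL/6, were compared. Ctrl embryos were labelled wild type. *F*-cKO embryos were Fto(f/f, Emx1-cre), in which exon 3 of *Fto* is deleted, and *M*-cKO embryos were Mettl3(f/f, Emx1-cre), in which exons 2 and 3 of *Mettl3* are deleted. In both knockouts Cre is driven by the *Emx1* promoter, so interneurons, vessels, microglia and meninges, which arise outside the *Emx1* lineage, keep undeleted alleles. The knockouts carry Cre and floxed alleles that wild-type embryos lack, and the study's methods give the floxed lines a mixed strain background, although every library is labelled C57BL/6. Each group had 3 RNA-seq libraries, which measure RNA, and 3 Ribo-seq libraries, which measure ribosome-protected fragments (RPFs), giving 18 libraries in all. The labels call the libraries of a group biological repeats without saying whether they came from separate litters, and the Ribo-seq methods can be read as taking 3 cortices from 1 litter, so *P* values measure the spread between these libraries.

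The AlkB family are iron- and 2-oxoglutarate-dependent dioxygenases, and several of them remove methyl groups by oxidising them. Fto and Alkbh5 act on m6A, the commonest internal modification of mRNA, which Mettl3 writes, and Fto also acts on the related mark beside the mRNA cap. Alkbh2 and Alkbh3 repair alkylated DNA, Alkbh1 and Alkbh8 act on tRNA, Alkbh4 has been linked to demethylation of actin, and Alkbh7 works in mitochondria. In the brain, Fto is known for its strong expression in neurons.

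Counted reads ranged from 18504094 to 22592406 per library in RNA-seq and from 10973699 to 35853227 in Ribo-seq. All 10 markers of the *Emx1*-lineage cortex were present in both assays, with summed levels of 913 to 1180 FPKM (fragments scaled to gene length and library size) over the RNA-seq libraries. *F*-cKO replicate 2 of Ribo-seq stood apart from the other libraries: its log2 counts scaled to depth correlated across genes at 0.875 and 0.879 with the other libraries of its group, against 0.957 to 0.988 for other pairs of the same group, it had the lowest depth, and the 6 endothelial markers summed to 86.2 RPKM (reads scaled in the same way) in it and to 4.35 to 8.997 RPKM in the other 8 Ribo-seq libraries. Only 3 of these 6 genes had a mean of at least 1 RPKM over the Ribo-seq libraries. The *Emx1*-lineage markers of this library summed to 689 RPKM, against 881 to 1118 RPKM in the others. Its meningeal (31.9 RPKM) and microglial (22.7 RPKM) sums were also the highest of the Ribo-seq libraries. Its erythroid (289 RPKM) and interneuron (34.4 RPKM) sums were the lowest. *F*-cKO values by RPFs and TE that turn on this library are therefore followed by the value without it.

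The genes lie on 8 chromosomes of the mouse assembly GRCm38.p6, and 6 of them share bases with another annotated gene that could take part of their reads. *Fto* spans chr8:91313367-91668433, the longest of the 9 at 355067 bases. *Alkbh3* overlaps the antisense RNA *Alkbh3os1*, *Alkbh2* overlaps *Ung*, *Alkbh1* overlaps *Nrp* and *Mir3068*, *Alkbh7* overlaps *Pspn*, *Alkbh8* overlaps the small RNA gene *Gm24918*, and *Fto* overlaps the non-coding RNA 4831440D22Rik. Whether reads were counted by strand is not given in the sources used here. *Rpgrip1l*, which encodes a protein of the ciliary transition zone, is read from the opposite strand and away from *Fto*, and the first bases of the 2 genes have 75 bases between them.

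The RefSeq promoter windows (GRCm38.p6), which run from 250 bases before to 50 bases after a start that RefSeq lists for the gene, are shown for *Fto* and for *Alkbh1*, *Alkbh4* and *Alkbh5*, because these are the 4 genes whose RNA was higher in *M*-cKO cortices. Each is printed 5′ to 3′ on the strand of its gene. In the *Fto* window the capitals mark the 198 bases that also lie in the window of *Rpgrip1l*. In the other windows the capitals mark CCGGAAG (a core of sites for ETS factors), CCAAT and GGGCGG, searched on both strands. The window nearest the chromosome start is shown for *Alkbh4*, which has 3. The start used for *Fto* lies 158 bases inside the gene span given above, those used for *Alkbh2* and *Alkbh3* lie 3015 and 94 bases inside their genes, and the other 6 coincide with the first base of the gene.
Fto (chr8:91313275-91313574, plus strand): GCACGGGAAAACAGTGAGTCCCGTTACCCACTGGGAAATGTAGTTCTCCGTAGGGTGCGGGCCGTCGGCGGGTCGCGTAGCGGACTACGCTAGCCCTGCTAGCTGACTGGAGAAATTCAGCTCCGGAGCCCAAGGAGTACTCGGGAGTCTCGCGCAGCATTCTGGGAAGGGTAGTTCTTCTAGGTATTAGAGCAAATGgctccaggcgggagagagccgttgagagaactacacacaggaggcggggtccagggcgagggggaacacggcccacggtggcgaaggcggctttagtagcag
Alkbh1 (chr12:87443790-87444089, minus strand): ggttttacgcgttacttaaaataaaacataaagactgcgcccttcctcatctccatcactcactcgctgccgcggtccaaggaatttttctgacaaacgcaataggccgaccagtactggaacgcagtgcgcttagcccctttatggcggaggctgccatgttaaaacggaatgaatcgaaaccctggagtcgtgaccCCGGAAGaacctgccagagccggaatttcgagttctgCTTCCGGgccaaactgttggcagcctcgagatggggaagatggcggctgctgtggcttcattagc
Alkbh4 (chr5:136135895-136136194, plus strand): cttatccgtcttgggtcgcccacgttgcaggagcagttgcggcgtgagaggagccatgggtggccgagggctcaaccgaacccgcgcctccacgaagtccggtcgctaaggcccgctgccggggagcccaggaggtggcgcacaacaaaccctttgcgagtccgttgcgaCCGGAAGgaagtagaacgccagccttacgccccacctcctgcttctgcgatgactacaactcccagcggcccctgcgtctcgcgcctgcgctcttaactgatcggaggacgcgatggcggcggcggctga
Alkbh5 (chr11:60537433-60537732, plus strand): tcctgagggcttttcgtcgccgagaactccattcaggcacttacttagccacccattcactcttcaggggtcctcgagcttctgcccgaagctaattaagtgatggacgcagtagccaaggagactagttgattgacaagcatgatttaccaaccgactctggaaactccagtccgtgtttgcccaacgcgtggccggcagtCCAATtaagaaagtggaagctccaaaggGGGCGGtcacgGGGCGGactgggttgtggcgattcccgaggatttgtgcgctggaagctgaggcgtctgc
None of these motifs was found in the *Fto* window. CCGGAAG or its reverse complement CTTCCGG was found in the windows of *Alkbh1*, *Alkbh2*, *Alkbh3* and *Alkbh4*, and in 8.86% of 32851 windows. CCAAT (reverse complement ATTGG) was found for *Alkbh5*, *Alkbh6*, *Alkbh7* and *Alkbh8* and in 37.4% of all windows, and GGGCGG (reverse complement CCGCCC) for *Alkbh2*, *Alkbh5* and *Alkbh6* and in 35.7%. TATAAA was found in none of the 9 windows and in 13.6% of all. The 9 windows held between 5 CG dinucleotides, in *Alkbh8*, and 33, in *Alkbh4*, and 8 of them held more than the median of 7 over all windows. These motifs do not separate the 4 genes that were higher in *M*-cKO from the others, and a match is a description of letters only.

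In Ctrl cortices the RNA levels of the 9 genes differed 4.65-fold from the highest to the lowest. *Alkbh7* was highest at 16.03 ± 0.5 FPKM (SD, n = 3), above all libraries of the next gene. *Alkbh5* followed at 11.9 ± 1.21, *Fto* at 10.1 ± 1.53 and *Alkbh6* at 9.39 ± 0.145, and each of these overlapped its neighbour in this order. *Alkbh8* was lower, at 7.69 ± 0.68 FPKM. *Alkbh4*, *Alkbh1*, *Alkbh3* and *Alkbh2* formed the lowest set, at 4.15 to 3.45 FPKM, where neighbours did not differ beyond their spread. Among the 13574 genes with at least 1 FPKM in Ctrl, the members lay between the 28.8th percentile (*Alkbh2*) and the 73.1th (*Alkbh7*).

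The order of RPF levels in Ctrl was different. *Alkbh7* (21.9 ± 2.82 RPKM) and *Fto* (21.8 ± 4.15) overlapped at the top, and *Alkbh8* (12.1 ± 0.48) and *Alkbh6* (8.29 ± 0.36) followed. *Alkbh5*, the second highest by RNA, came behind 4 other members by RPFs, at 6.65 ± 0.52 RPKM. *Alkbh1*, *Alkbh4* and *Alkbh3* overlapped their neighbours at 4.41 to 3.73 RPKM, and *Alkbh2* was lowest at 2.40 ± 0.29.

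**Figure D1:**
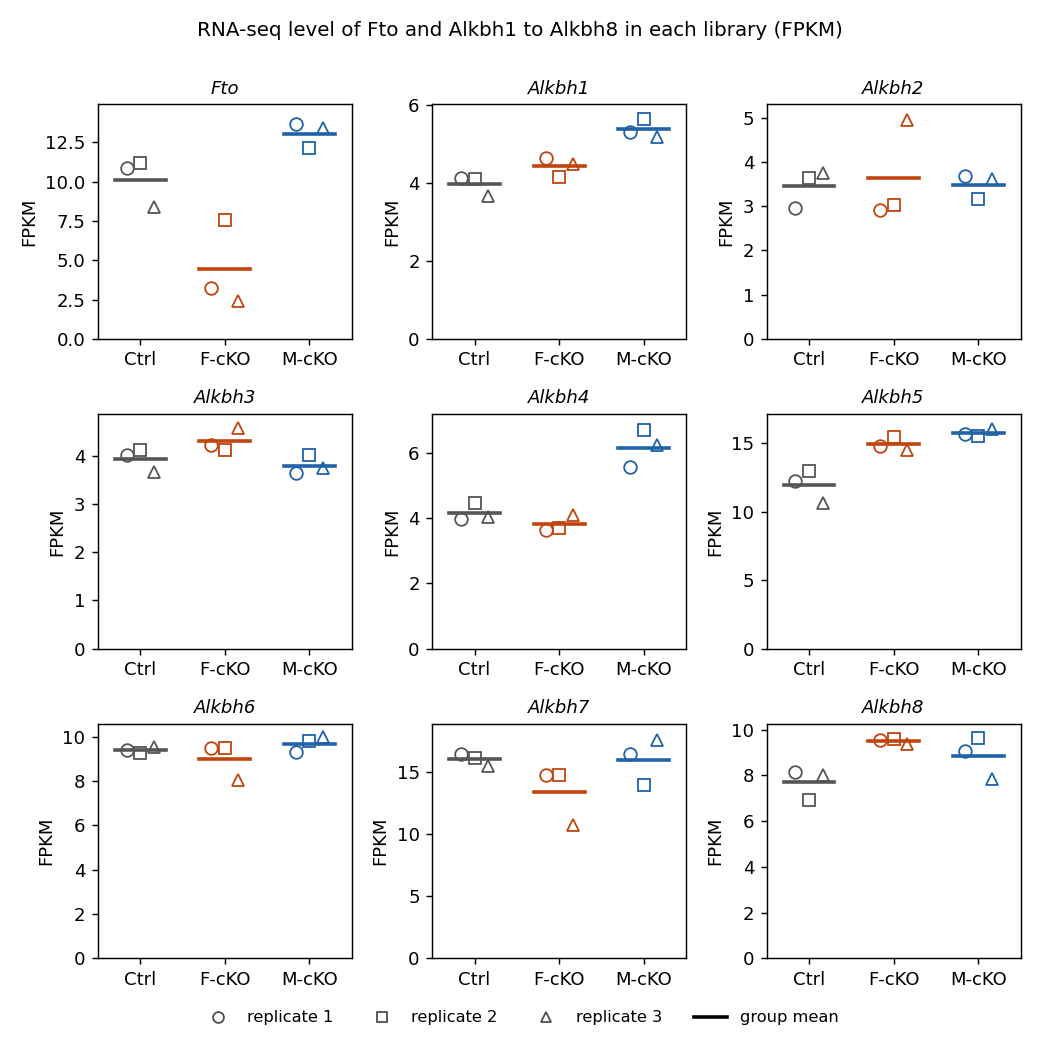
RNA level in FPKM (y axis, linear from 0) of each of the 9 genes in the Ctrl, *F*-cKO and *M*-cKO libraries. Open symbols are single libraries and lines are group means: the *Fto* level of *F*-cKO replicate 2 (7.56 FPKM) lies well above those of the other *F*-cKO libraries, and *Alkbh1*, *Alkbh4*, *Alkbh5* and *Fto* lie higher in every *M*-cKO library than in any Ctrl library.

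The targeted gene was examined first. In RNA-seq *Fto* was at 10.8, 11.2 and 8.37 FPKM in Ctrl replicates 1 to 3, at 3.26, 7.56 and 2.43 FPKM in *F*-cKO, and at 13.6, 12.1 and 13.4 FPKM in *M*-cKO. All *F*-cKO libraries lay below all Ctrl libraries, but *F*-cKO replicate 2 was at 74.7% of the Ctrl mean whereas replicates 1 and 3 were at 32.2% and 24.1%. The *F*-cKO mean was 43.7% ± 27.2 (SD, n = 3) of Ctrl, with a two-sided exact permutation *P* of 0.1, the smallest that 3 against 3 libraries allow, and without *F*-cKO replicate 2 it was 28.1%. Counts are taken over the whole gene, so a transcript that lacks exon 3 is still counted, and in bulk tissue fewer cells that express a gene cannot be told apart from less RNA per cell.

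Across all genes, *Fto* fell by 1.21 ± 0.33 (SE) on the log2 scale in *F*-cKO compared to Ctrl (adjusted *P* = 0.0298 in edgeR's quasi-likelihood test, after the Benjamini-Hochberg method). This call depended on single libraries. It was lost without Ctrl replicate 1, 2 or 3 or without *F*-cKO replicate 1 (adjusted *P* of 0.0803, 0.0758, 0.0553 and 0.0714, same test), and DESeq2 gave an adjusted *P* of 0.0695. Without *F*-cKO replicate 2 the estimate was −1.84 ± 0.16 with an adjusted *P* of 0.0142. Markers of tissue outside the *Emx1* lineage were summed in the 3 *F*-cKO libraries. In replicate 2 interneuron and ganglionic eminence markers summed to 94.0 FPKM, against 115 and 83.7 in replicates 1 and 3, and endothelial markers to 36.6 against 41.9 and 36.4. Thalamic markers were highest in replicate 2, at 3.99 FPKM against 3.11 and 3.97. Microglial (16.7 against 22.9 and 17.7), meningeal (2.27 against 5.68 and 6.92), erythroid (357 against 416 and 439) and choroid plexus markers (271 against 388 and 379) were lowest in it. The part of these tissues in its *Fto* level was not tested.

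*Fto* RPFs were far lower in *F*-cKO. Levels were 25.9, 21.98 and 17.6 RPKM in Ctrl, 3.91, 2.11 and 4.04 RPKM in *F*-cKO, and 26.1, 23.7 and 22.1 RPKM in *M*-cKO. All 3 *F*-cKO libraries lay far below all Ctrl libraries, at 15.4% ± 4.95 of the Ctrl mean (SD, n = 3, exact permutation *P* = 0.1), and at 18.2% without replicate 2. No gene of 14335 was called in this comparison (edgeR quasi-likelihood test, smallest adjusted *P* 0.35; 227 genes were higher and 91 lower at an unadjusted *P* below 0.05, and DESeq2 called 5 higher and 1 lower), and percent called was 0.0. *Fto* ranked first of all genes by *P*, with a log2 fold change of −2.67 ± 0.25, and its adjusted *P* was 0.35. It was called without *F*-cKO replicate 2 (−2.48 ± 0.18, adjusted *P* = 0.0358), in a single edgeR fit of all 9 libraries (adjusted *P* = 0.0139) and by DESeq2 (adjusted *P* = 5.28e-16).

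*Mettl3*, the other targeted gene, was at 5.84, 6.43 and 5.07 FPKM in Ctrl and at 8.61, 7.82 and 8.34 FPKM in *M*-cKO, so whole-gene RNA was higher in the knockout (log2 fold change 0.50 ± 0.09, adjusted *P* = 0.00221, edgeR quasi-likelihood test). Its RPFs were at 9.16, 9.25 and 9.93 RPKM in Ctrl and lower in *M*-cKO, at 6.78, 6.02 and 6.40 RPKM (log2 fold change −0.55 ± 0.09, adjusted *P* = 0.0157, same test). Because exons outside the deletion are counted, the RNA level does not check the genotype label.

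**Figure D2:**
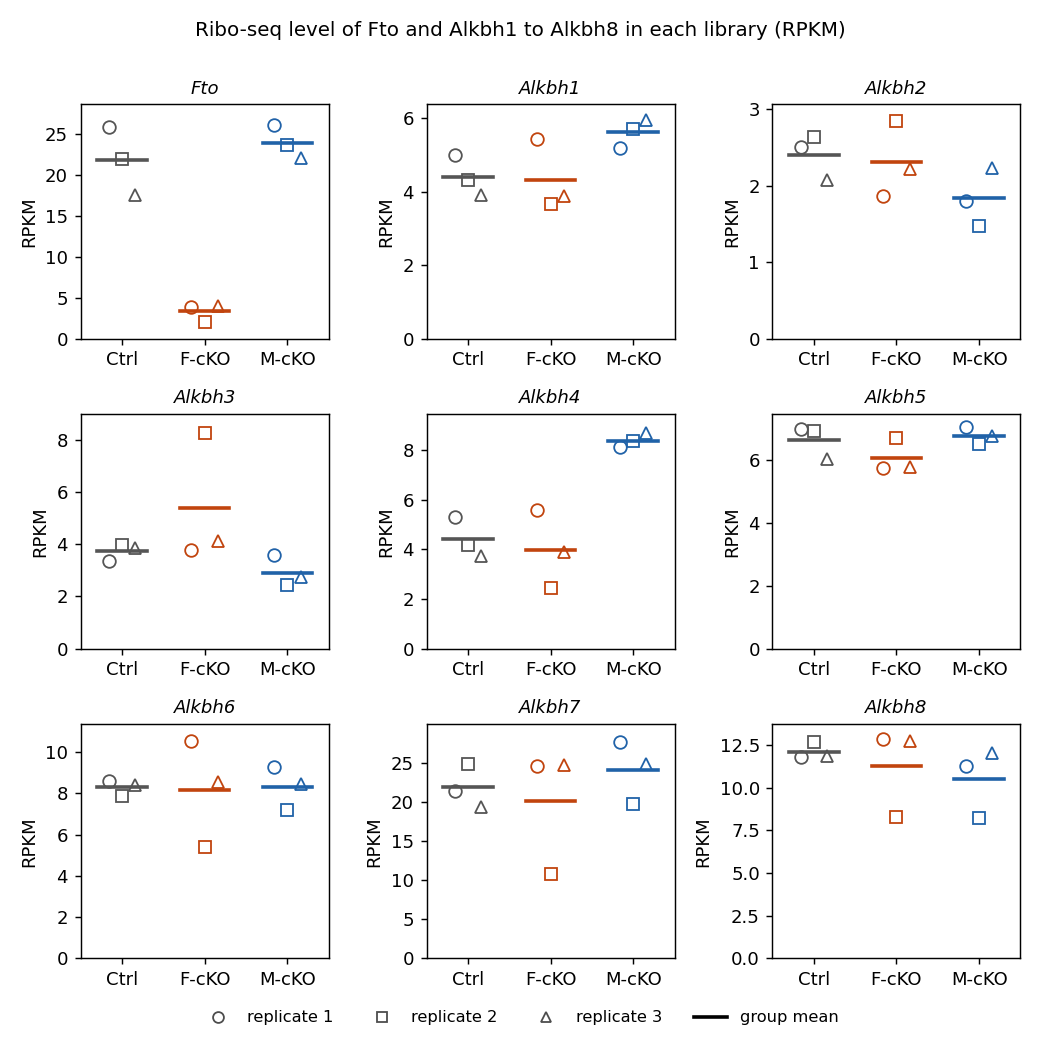
RPF level in RPKM (y axis, linear from 0) of each of the 9 genes in the Ctrl, *F*-cKO and *M*-cKO libraries, with single libraries as open symbols and group means as lines. *Fto* is at 2.11 to 4.04 RPKM in *F*-cKO against 17.6 to 25.9 in Ctrl, *Alkbh4* is at 8.11 to 8.68 in *M*-cKO against 3.75 to 5.29 in Ctrl, and *F*-cKO replicate 2 is the highest library for *Alkbh3* and the lowest for *Alkbh6* and *Alkbh7*.

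Besides *Fto*, *Alkbh5* and *Alkbh8* were called at the RNA level in *F*-cKO, both upward. Thus 3 of the 9 genes were called in this comparison, 2 higher and 1 lower, where percent called over all 16944 genes was 21.1 (11.5 higher and 9.57 lower). The groups did not overlap for 6 of the 9 genes (4 higher and 2 lower), against 41.6% of all genes (22.0% higher and 19.6% lower). *Fto*, the gene deleted in this group, is the 1 lower call and 1 of the 2 lower by levels. Only the 2 higher calls came from genes that were not targeted. *Alkbh5*, the second m6A demethylase, was at 12.3, 12.9 and 10.6 FPKM in Ctrl and at 14.8, 15.5 and 14.5 FPKM in *F*-cKO. Every *F*-cKO library was above every Ctrl library, by 0.31 ± 0.08 on the log2 scale (adjusted *P* = 0.0216, edgeR quasi-likelihood test), and the call was lost without Ctrl replicate 3 or *F*-cKO replicate 2 (adjusted *P* = 0.063 and 0.0814).

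*Alkbh8*, which modifies the wobble uridine of tRNA, was at 8.16, 6.91 and 8.001 FPKM in Ctrl and at 9.53, 9.61 and 9.35 FPKM in *F*-cKO. The *F*-cKO libraries lay close together and above Ctrl, by 0.29 ± 0.07 on the log2 scale (adjusted *P* = 0.0186, edgeR quasi-likelihood test), and the call was lost without *F*-cKO replicate 2 (adjusted *P* = 0.0672). *Alkbh1* and *Alkbh3* were also higher in every *F*-cKO library and *Alkbh7* lower, with no call (adjusted *P* = 0.253, 0.455 and 0.178). Apart from *Fto*, the 8 *Alkbh* genes had log2 fold changes from −0.27 to 0.31 with a median of 0.09, beside −0.01 over all genes. Marker sums moved with the *F*-cKO group in both directions. *Emx1*-lineage markers summed to 1045 to 1092 FPKM in *F*-cKO and 913 to 982 in Ctrl. Endothelial markers summed to 36.4 to 41.9 FPKM in *F*-cKO and 48.6 to 52.3 in Ctrl, meningeal markers to 2.27 to 6.92 and 9.002 to 16.6 FPKM, and erythroid markers to 357 to 439 and 475 to 878 FPKM. Microglial markers overlapped, at 16.7 to 22.9 and 21.6 to 26.8 FPKM, as did those of interneurons (83.7 to 115 and 86.9 to 88.2 FPKM) and choroid plexus (271 to 388 and 69.2 to 799 FPKM). Thalamic markers, which would mark tissue beside the cortex, summed to 3.11 to 3.99 FPKM in *F*-cKO, 3.22 to 3.78 in *M*-cKO and 1.73 to 2.77 in Ctrl. Only 1 of these 3 genes had a mean of at least 1 FPKM over the RNA-seq libraries. The part of these tissues in the results was not tested.

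RPFs of *Alkbh5* and *Alkbh8* overlapped between *F*-cKO and Ctrl through *F*-cKO replicate 2 alone. *Alkbh5* was at 6.99, 6.92 and 6.05 RPKM in Ctrl and at 5.76, 6.70 and 5.80 RPKM in *F*-cKO, where replicates 1 and 3 lay below all Ctrl libraries and replicate 2 within their range (log2 fold change −0.07 ± 0.18, and −0.23 ± 0.13 without *F*-cKO replicate 2). *Alkbh8* was at 11.8, 12.7 and 11.9 RPKM in Ctrl and at 12.8, 8.29 and 12.7 RPKM in *F*-cKO, where replicates 1 and 3 lay just above all Ctrl libraries and replicate 2 below them, and without replicate 2 the log2 fold change was 0.05 ± 0.10. With all libraries, *Fto* was the only member whose groups did not overlap, against 7.16% of all genes (3.03% higher and 4.13% lower). Without *F*-cKO replicate 2 they were *Fto*, *Alkbh5* and *Alkbh8*, 3 of 9 (1 higher and 2 lower), against 18.1% of all genes (8.15% lower and the rest higher), and neither *Alkbh5* nor *Alkbh8* was called (adjusted *P* = 0.875 and 0.926, edgeR quasi-likelihood test). For the 8 *Alkbh* genes the log2 fold changes ran from −0.12 to 0.61 with standard errors of 0.15 to 0.39, so changes of the size seen in RNA were not detectable at this spread. Without *F*-cKO replicate 2 they ran from −0.25 to 0.18, with standard errors of 0.10 to 0.28.

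*Alkbh3*, the repair enzyme for alkylated single-stranded DNA, gave the upper end of that range. It was at 3.35, 3.97 and 3.86 RPKM in Ctrl and at 3.77, 8.26 and 4.13 RPKM in *F*-cKO. A single library was high, *F*-cKO replicate 2 at 222% of the Ctrl mean against 101% and 111% in replicates 1 and 3, and without it the log2 fold change was 0.06 ± 0.18. It is also the library with the highest sums of endothelial, meningeal and microglial markers, and the part of those cells was not tested. In the same library *Alkbh7* was at 49.4%, *Alkbh4* at 55.4%, *Alkbh6* at 65.2% and *Alkbh8* at 68.4% of Ctrl, whereas in *F*-cKO replicates 1 and 3 these 4 genes lay between 88.6% and 127%.

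In *M*-cKO cortices RNA of 4 of the 9 genes rose and none fell. Percent called over all 16968 genes was 29.6 (15.5 higher and 14.1 lower). The called genes were the same 4 whose groups did not overlap, *Fto*, *Alkbh1*, *Alkbh4* and *Alkbh5*, and non-overlapping groups were found for 44.7% of all genes (23.3% higher and 21.5% lower). The member median was 0.19 on the log2 scale beside −0.01 over all genes.

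*Alkbh4* changed most. Its RNA was at 3.96, 4.46 and 4.04 FPKM in Ctrl, 3.65, 3.70 and 4.09 FPKM in *F*-cKO, and 5.56, 6.69 and 6.24 FPKM in *M*-cKO. The *M*-cKO libraries were higher than all other libraries, by 0.56 ± 0.12 on the log2 scale against Ctrl (adjusted *P* = 0.00614, edgeR quasi-likelihood test). Its RPFs were at 5.29, 4.16 and 3.75 RPKM in Ctrl, 5.60, 2.44 and 3.90 RPKM in *F*-cKO, and 8.11, 8.36 and 8.68 RPKM in *M*-cKO. Again all *M*-cKO libraries were highest, at 191% ± 6.46 of Ctrl (SD, n = 3, exact permutation *P* = 0.1).

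*Alkbh4* was thereby the only member called by RPFs in *M*-cKO (log2 fold change 0.94 ± 0.17, adjusted *P* = 0.0163, edgeR quasi-likelihood test), with percent called of 14.6 over 14314 genes (7.13 higher and 7.5 lower). The call was lost without Ctrl replicate 2 or 3 (adjusted *P* = 0.0841 and 0.0522) and in the fit of all 9 libraries (0.142), although the estimate stayed between 0.86 and 1.10 over the libraries left out. *Alkbh1* and *Alkbh4* were the 2 members whose groups did not overlap, against 38.0% of all genes (17.6% higher and 20.4% lower).

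*Alkbh1*, which acts on tRNA and in mitochondria, was at 4.12, 4.10 and 3.66 FPKM in Ctrl and at 5.30, 5.62 and 5.18 FPKM in *M*-cKO. Every *M*-cKO library was higher (log2 fold change 0.43 ± 0.08, adjusted *P* = 0.0029, edgeR quasi-likelihood test). Its RPFs were at 5.003, 4.31 and 3.91 RPKM in Ctrl and at 5.19, 5.70 and 5.96 RPKM in *M*-cKO, a change of 0.36 ± 0.13 on the log2 scale that did not pass the test (adjusted *P* = 0.101).

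*Alkbh5* RNA was at 15.7, 15.5 and 16.03 FPKM in *M*-cKO, the highest 3 of the 9 libraries, and at 132% ± 2.15 of Ctrl (log2 fold change 0.39 ± 0.07, adjusted *P* = 0.0028, edgeR quasi-likelihood test). Its RPFs, at 7.05, 6.53 and 6.79 RPKM, overlapped with Ctrl (0.04 ± 0.10). *Fto* showed the same arrangement: RNA was 0.36 ± 0.10 higher on the log2 scale (adjusted *P* = 0.0168, same test), which was not called in the fit of all 9 libraries (adjusted *P* = 0.375), and RPFs overlapped with Ctrl (0.15 ± 0.15). In *M*-cKO *Alkbh8* RNA was at 9.08, 9.61 and 7.84 FPKM, of which replicate 3 lay within the Ctrl range (adjusted *P* = 0.126, and 0.0277 without it). *Alkbh2*, *Alkbh3*, *Alkbh6* and *Alkbh7* had log2 fold changes of −0.06 to 0.04 in RNA, with no call.

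Markers of interneurons and ganglionic eminence, which lie outside the *Emx1* lineage, moved with the *M*-cKO group. All 8 were detected, and their sum was 86.9 to 88.2 FPKM in Ctrl and 123 to 167 FPKM in *M*-cKO by RNA-seq, and 38.9 to 58.6 and 64.6 to 124 RPKM by Ribo-seq. The sum of the 3 thalamic markers was also higher without overlap, at 3.22 to 3.78 FPKM in *M*-cKO and 1.73 to 2.77 in Ctrl by RNA-seq. By Ribo-seq it was 4.60 to 6.20 RPKM in *M*-cKO and 3.02 to 4.20 in Ctrl. Only 1 of the 3 genes had a mean of at least 1 FPKM over the RNA-seq libraries, and 2 of at least 1 RPKM over the Ribo-seq libraries. The thalamic genes were not compared singly. *Emx1*-lineage markers were higher by RNA, at 1158 to 1180 FPKM in *M*-cKO and 913 to 982 in Ctrl, and overlapped by Ribo-seq, at 881 to 1092 and 993 to 1118 RPKM. The endothelial, microglial, meningeal, erythroid and choroid plexus sums overlapped between *M*-cKO and Ctrl in both assays. The part of these cells in the RNA changes of *Alkbh1*, *Alkbh4*, *Alkbh5* and *Fto* and in the RPF change of *Alkbh4* was not tested.

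**Figure D3:**
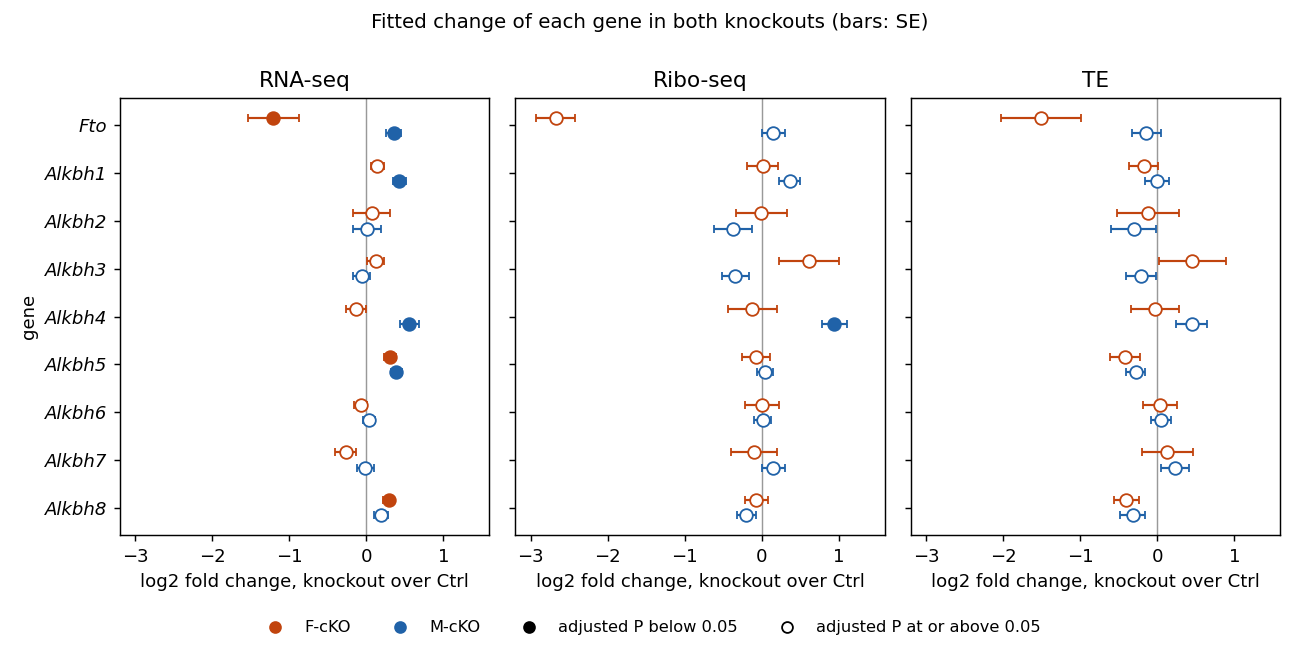
Log2 fold changes against Ctrl (x axis) with standard errors for each gene (y axis) in RNA-seq, Ribo-seq and TE, with *F*-cKO in orange and *M*-cKO in blue. Filled points passed an adjusted *P* of 0.05: these are *Fto*, *Alkbh5* and *Alkbh8* in *F*-cKO RNA, *Fto*, *Alkbh1*, *Alkbh4* and *Alkbh5* in *M*-cKO RNA, and *Alkbh4* in *M*-cKO RPFs.

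Both knockouts were then compared directly, because they share the Ctrl libraries. By RNA, *Fto*, *Alkbh1* and *Alkbh4* were higher in *M*-cKO than in *F*-cKO, 3 of 9 genes where percent called over 16802 genes was 27.4 (13.1 higher and 14.3 lower). Of these 3, *Fto* is the gene deleted in *F*-cKO. The log2 difference was 1.56 ± 0.31 for *Fto* (adjusted *P* = 0.00512), 0.68 ± 0.13 for *Alkbh4* (adjusted *P* = 0.00433) and 0.27 ± 0.08 for *Alkbh1* (adjusted *P* = 0.03, edgeR quasi-likelihood test for all 3). The call of *Alkbh1* was lost without *F*-cKO replicate 2 or *M*-cKO replicate 1 or 2 (adjusted *P* = 0.113, 0.0607 and 0.0963). Without *F*-cKO replicate 2 the difference for *Fto* was 2.20 ± 0.12. *Alkbh5* and *Alkbh8*, with log2 differences of 0.07 ± 0.06 and −0.11 ± 0.08, were not called. Non-overlapping groups were found for 5 members (4 higher and 1 lower) and 43.5% of all genes (21.7% higher and 21.8% lower).

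By RPFs no gene of 14262 was called between the knockouts (percent called 0.0, with 710 genes higher and 444 lower at an unadjusted *P* below 0.05, and 173 higher and 27 lower called by DESeq2). *Fto* ranked first by *P* with a log2 difference of 2.85 ± 0.23 (adjusted *P* = 0.107, edgeR quasi-likelihood test), and it was called without *F*-cKO replicate 2 (2.65 ± 0.15, adjusted *P* = 0.00803) and by DESeq2 (3.13e-21). For *Alkbh4* the difference was 1.09 ± 0.30 (adjusted *P* = 0.561), and 0.89 ± 0.22 without that library (adjusted *P* = 0.272). *Fto*, *Alkbh3* and *Alkbh4* had groups that did not overlap, against 13.7% of all genes (8.05% higher and 5.64% lower). Without *F*-cKO replicate 2, *Alkbh5* (higher in *M*-cKO) and *Alkbh8* (lower) did not overlap either, which makes 5 of 9 (3 higher and 2 lower) against 33.2% of all genes (14.0% higher and 19.2% lower). The difference for *Alkbh3* without that library was −0.38 ± 0.24 (adjusted *P* = 0.495, edgeR quasi-likelihood test).

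Translation efficiency (TE), the ratio of mean RPKM to mean FPKM of a group, differed 3.87-fold between the members in Ctrl. *Fto* had the highest TE at 2.15, at the 87.1th percentile of the 11252 coding genes with at least 1 FPKM, whose median was 0.856. *Alkbh8* (1.58), *Alkbh7* (1.36), *Alkbh1* (1.11), *Alkbh4* (1.06), *Alkbh3* (0.947) and *Alkbh6* (0.883) lay above that median. *Alkbh2* (0.698) and *Alkbh5* (0.557) lay below it. By this ratio the 2 demethylases of m6A in mRNA were at opposite ends of the family. The ratio has no spread over libraries here, and differences between genes were not tested. RPFs lie mainly in coding sequence whereas RNA reads cover whole transcripts, so untranslated regions can shift the order of genes. The median over all genes with both values was 0.79.

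Changes of TE were tested as the interaction of assay and genotype. In *F*-cKO no gene of 13225 was called (percent called 0.0, with 411 genes higher and 817 lower at an unadjusted *P* below 0.05, and 6 higher and 41 lower by DESeq2, none of them a member). *Fto* had a TE of 0.758, with a fitted log2 change of −1.51 ± 0.52 (adjusted *P* = 0.472, edgeR quasi-likelihood test). This value moved with replicate 2: without the Ribo-seq library it was −1.27 ± 0.48 (adjusted *P* = 0.283), without the RNA-seq library −0.88 ± 0.33, and without replicate 2 of both assays −0.64 ± 0.25 (adjusted *P* = 0.7 and 0.393). *Alkbh5* and *Alkbh8* had TE changes of −0.42 ± 0.20 and −0.40 ± 0.16 (adjusted *P* = 0.541 and 0.528), and without Ribo-seq replicate 2 of −0.53 ± 0.14 and −0.23 ± 0.12 (adjusted *P* = 0.158 and 0.404, same test).

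In *M*-cKO 405 of 13208 genes were called, which is 3.07 percent (1.89 higher and 1.18 lower), and no member was among them. *Alkbh5* and *Alkbh8* again had negative estimates, of −0.28 ± 0.12 and −0.32 ± 0.16 (adjusted *P* = 0.202 and 0.261, edgeR quasi-likelihood test). *Alkbh4* had the highest estimate, 0.45 ± 0.20 (adjusted *P* = 0.217), with a TE of 1.36 beside 1.06 in Ctrl. *Fto* had a TE of 1.84 (−0.14 ± 0.19). The knockouts share the Ctrl libraries, so like estimates in both are not independent.

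**Figure D4:**
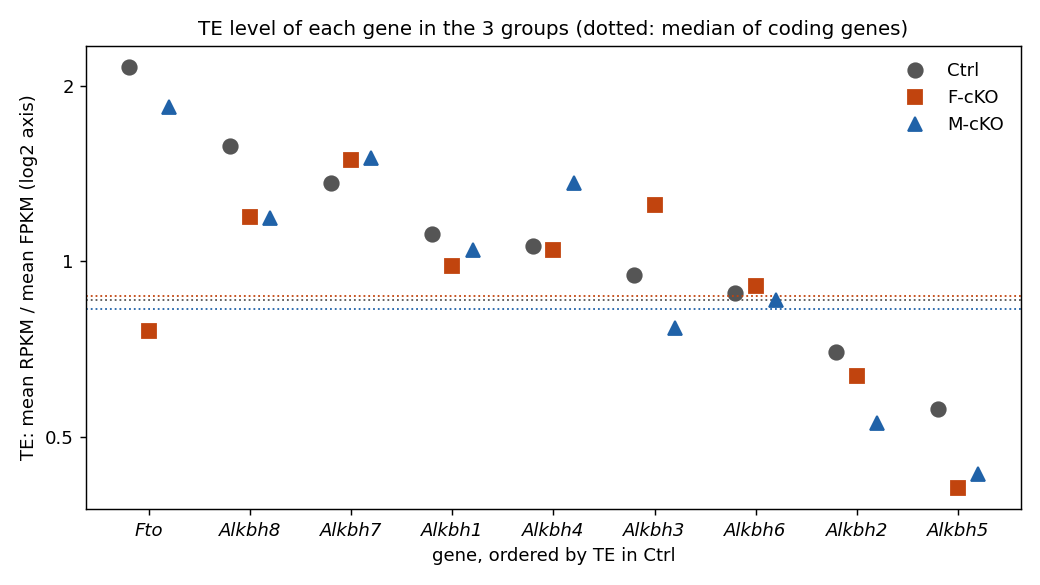
TE, mean RPKM over mean FPKM on a log2 axis, of each gene by group, ordered by TE in Ctrl, with dotted lines at the median of coding genes of each group. *Fto* is at 2.15 in Ctrl and 0.758 in *F*-cKO, and *Alkbh5* is lowest in all 3 groups, at 0.557, 0.408 and 0.431. Transcripts that lack exon 3 are counted in the *Fto* RNA of *F*-cKO.

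Genes that write or read the mark were examined beside the demethylases. Of 13 writers of m6A and m6Am, 5 rose and none fell in *F*-cKO RNA, where 11.5% of all genes tested rose and 9.57% fell. In *M*-cKO RNA 8 rose and none fell, beside 15.5% and 14.1% of all genes. The writers with the smallest adjusted *P* in *M*-cKO were *Rbm15* and *Rbm15b*, adaptors of the methyltransferase complex (log2 fold changes 1.37 ± 0.10 and 0.80 ± 0.06, adjusted *P* = 1.67e-05 and 1.81e-05, edgeR quasi-likelihood test). In *F*-cKO they were *Virma* and *Rbm15* (0.41 ± 0.06 and 0.46 ± 0.10, adjusted *P* = 0.00443 and 0.0124). In *M*-cKO RPFs 4 writers rose and 2 fell, beside 7.13% and 7.5% of all genes. By RNA, the writers had a median log2 fold change of 0.18 in *F*-cKO, and in *M*-cKO it was 0.32, beside −0.01 over all genes in both. *Mettl3*, the gene deleted in *M*-cKO, is among the writers. There it is 1 of the 8 that rose by RNA and 1 of the 2 that fell by RPFs.

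Of 13 m6A readers, 5 rose and none fell in *F*-cKO RNA (11.5% and 9.57% of all genes), and 4 rose and 3 fell in *M*-cKO RNA (15.5% and 14.1%). *Ythdf1* and *Ythdf2*, cytoplasmic readers, rose in *M*-cKO (0.84 ± 0.07 and 0.69 ± 0.06, adjusted *P* = 2.78e-05 and 3.99e-05, edgeR quasi-likelihood test), and *Rbmx* fell by 0.60 ± 0.07 (adjusted *P* = 0.000146). In *F*-cKO the leading readers were *Igf2bp2* and *Igf2bp3* (0.81 ± 0.13 and 0.61 ± 0.10, adjusted *P* = 0.00443 and 0.00536). In *M*-cKO RPFs 5 readers rose and 1 fell (7.13% and 7.5% of all genes).

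The Tet enzymes oxidise 5-methylcytosine of DNA with the same cofactors as the AlkB family, and there are 3 of them. *Tet1* and *Tet3* rose in *F*-cKO RNA (0.39 ± 0.10 and 0.36 ± 0.08, adjusted *P* = 0.0197 and 0.0162, edgeR quasi-likelihood test), and *Tet3* rose in *M*-cKO by RNA (0.44 ± 0.08, adjusted *P* = 0.0023) and by RPFs (0.47 ± 0.10, adjusted *P* = 0.0256). Over all genes 11.5% rose in *F*-cKO RNA, 15.5% in *M*-cKO RNA and 7.13% in *M*-cKO RPFs. Of 13 partners of the AlkB proteins and enzymes of the same tRNA and repair pathways, 1 rose in *F*-cKO RNA (*Ascc3*, 0.27 ± 0.08, adjusted *P* = 0.041, edgeR quasi-likelihood test), and 1 rose and 2 fell in *M*-cKO RNA. As shares of the list these counts lie below the background, where percent called was 21.1 for *F*-cKO and 29.6 for *M*-cKO. The 3 in *M*-cKO were *Ctu1*, which thiolates wobble uridines of tRNA (0.35 ± 0.08, adjusted *P* = 0.00696), its partner *Ctu2* (−0.30 ± 0.10, adjusted *P* = 0.0329) and *Ascc2*, a subunit of the complex that works with Alkbh3 (−0.35 ± 0.07, adjusted *P* = 0.00505, same test). By RPFs in *M*-cKO 1 partner rose, *Ctu1* (0.65 ± 0.18, adjusted *P* = 0.0469), and none fell, beside 7.13% and 7.5% of all genes, and *Ascc2* was at 0.01 ± 0.09. *Ascc2* was the 1 partner called in TE, upward (0.43 ± 0.11, adjusted *P* = 0.0496, same test), beside 1.89% of all genes. Among the writers 1 rose and 1 fell in TE in *M*-cKO, *Zc3h13* (0.56 ± 0.11, adjusted *P* = 0.0221) and *Mettl3* (−0.99 ± 0.13, adjusted *P* = 0.00512, same test), and none of the readers or Tet enzymes was called. *Mettl3* is the gene deleted in *M*-cKO. Transcripts that lack the deleted exons are counted as its RNA, so its TE value does not describe intact mRNA alone.

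Of the 7 genes near *Fto* that were listed, 5 passed the filter in RNA-seq, of which 1 was called in *F*-cKO and 2 in *M*-cKO, beside 21.1% and 29.6% of all genes. *Rpgrip1l*, whose promoter window overlaps that of *Fto*, was at 1.601, 1.65 and 1.71 FPKM in Ctrl, 1.85, 2.03 and 1.98 FPKM in *F*-cKO, and 1.48, 1.28 and 1.35 FPKM in *M*-cKO. No 2 of the 3 groups overlapped, and 41.6% to 44.7% of all genes did not overlap between 2 of the groups. The share of genes with all 3 groups apart was not computed. *Rpgrip1l* fell by 0.28 ± 0.09 on the log2 scale in *M*-cKO (adjusted *P* = 0.0345) and was 0.23 ± 0.08 higher in *F*-cKO without passing the test (adjusted *P* = 0.0677, edgeR quasi-likelihood test). By RPFs it was at −0.08 ± 0.10 in *M*-cKO, where the groups overlapped (adjusted *P* = 0.627, same test). In *F*-cKO its RPFs were at 0.29 ± 0.16 (adjusted *P* = 0.73, same test). *Chd9* rose in *F*-cKO (0.42 ± 0.06, adjusted *P* = 0.00396) and *Aktip* fell by 0.23 ± 0.06 in *M*-cKO (adjusted *P* = 0.0182, same test). By RPFs 4 of the listed genes were tested in *M*-cKO and 1 was called, lower, beside 7.5% of all genes. It was *Aktip* (−0.40 ± 0.09, adjusted *P* = 0.0291, same test).

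Genes that share bases with a member were also compared by RNA. *Ung*, a uracil-DNA glycosylase that overlaps *Alkbh2*, rose in *F*-cKO (0.74 ± 0.11, adjusted *P* = 0.00414) and *M*-cKO (0.79 ± 0.11, adjusted *P* = 0.000422, edgeR quasi-likelihood test), whereas *Alkbh2* had log2 fold changes of 0.07 ± 0.24 and 0.01 ± 0.18. *Alkbh3os1*, antisense to *Alkbh3*, was at 0.66, 0.88 and 0.96 FPKM in Ctrl, 0.50, 0.41 and 0.42 FPKM in *F*-cKO, and 0.26, 0.29 and 0.18 FPKM in *M*-cKO. It fell by 1.80 ± 0.34 in *M*-cKO (adjusted *P* = 0.0026, same test), while *Alkbh3* itself was at −0.06 ± 0.11. In *F*-cKO *Alkbh3os1* was at −0.92 ± 0.30 without passing the test (adjusted *P* = 0.0557, same test), and *Alkbh3* at 0.12 ± 0.11. Reads of an antisense pair cannot be told apart where counting ignores strand.

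Over the 9 RNA-seq libraries, the coding genes whose log2 counts, scaled to depth, followed *Fto* most closely, of 13808, were *Slc25a33*, *Mlycd*, *Mmp9*, *Lgr4* and *Oxld1*, with Pearson correlations of 0.965 to 0.948. Their range over the libraries was 0.45 to 0.92 on the log2 scale beside 2.47 for *Fto*, and over the 9 Ribo-seq libraries their correlation with *Fto* ran from −0.34 to 0.71. For *Alkbh5* the closest genes were *Zfand3*, *Efnb1*, *Wasf2*, *Sox3* and *Zfp36l1*, at 0.985 to 0.981 by RNA and −0.27 to 0.68 by RPFs. Libraries of a group share their genotype, so these correlations describe the 9 libraries only.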

How the data were processed

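RNA-seq (NEBNext Ultra kit, paired-end) and Ribo-seq libraries (cycloheximide, RNase I) were made from cortices of 3 groups, 3 libraries each per assay. Per the study's methods and the submitters' processing notes, RNA-seq reads were aligned with HISAT2 2.0.5 to mm10, and Ribo-seq reads with TopHat2 and counted with HTSeq. The authors deposited raw gene counts, FPKM for RNA-seq and RPKM for Ribo-seq. The counter for RNA-seq, its annotation and the use of strand are not given in the sources used here. The Ribo-seq count table was blank for 40490 genes in 8 libraries, which limited it to 14348 genes.

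Deposited counts were tested with edgeR 4.0.16 (quasi-likelihood test, TMM, filterByExpr with a minimum count of 10 and total of 15) on the 6 libraries compared, and TE as the interaction of assay and genotype over 12 libraries. Benjamini-Hochberg adjustment ran over all genes, with a threshold of 0.05. Scripts were tested on simulated data. Alternatives were RLE scaling, DESeq2 1.42.0, no filter, a replicate block, all 9 libraries in a single fit, and each library left out. The study's TE tool was not used here. Genes named were the 9 members, *Mettl3*, up to 4 genes of each list with the smallest adjusted *P* in the comparison described, genes that share bases with a member, and the 5 genes most like *Fto* and *Alkbh5*. Members and lists were chosen with earlier results of these data known. Same-numbered libraries of different groups did not all deviate together (correlations from −0.278 to 0.163), so numbers were not taken to pair groups.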

Additional observations from a re-analysis of the deposited data

How the results depend on the processing

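The called values of members kept their direction in all 121 refits under the alternatives, and 105 of these stayed past the threshold. The 4 members never called gave 35 sign changes in 400 values, and none was called. Leaving out libraries gave 1 to 3 called members in *F*-cKO RNA, and 0 to 1 in *F*-cKO RPFs, *M*-cKO RPFs and RPFs between the knockouts. DESeq2 and the fit of all 9 libraries each called 1 member in *F*-cKO RPFs and 1 between the knockouts, and the fit of all 9 called 0 in *M*-cKO RPFs. Members whose RPF groups did not overlap went from 1 to 3 in *F*-cKO and from 3 to 5 between the knockouts without Ribo-seq *F*-cKO replicate 2, a comparison added after seeing the data. The fold between the highest and lowest TE in Ctrl was 3.47 with a pseudocount of 1. TE of *Alkbh1* in *M*-cKO changed sign to −0.0291 (RLE), −0.028 (DESeq2) and −0.0106 (no filter). With libraries left out, signs changed for RPFs in *F*-cKO of *Alkbh1* (−0.13 to 0.14), *Alkbh4* (−0.393 to 0.0757), *Alkbh5* (−0.227 to 0.0389) and *Alkbh8* (−0.128 to 0.0546), for RPFs of *Alkbh5* in *M*-cKO (−0.000849 to 0.0786) and *Alkbh8* between the knockouts (−0.23 to 0.022), for TE of *Alkbh4* in *F*-cKO (−0.31 to 0.21, and 0.18 without both replicate 2 libraries, an alternative chosen after seeing the data), and for TE in *M*-cKO of *Fto* (−0.276 to 0.00516) and *Alkbh1* (−0.0791 to 0.107). The causes were not tested. Over all genes, total counts of calls moved by more than 1.5 times in *F*-cKO RNA without Ctrl replicate 3 (984 higher, 559 lower), without *F*-cKO replicate 2 (1148, 812) and with the replicate block (1275, 855), between the knockouts by RNA without *F*-cKO replicate 2 (1442, 1325), in *M*-cKO RPFs in the fit of all 9 libraries (29, 6), with the replicate block (681, 638) and without Ctrl replicate 2 (115, 62, the lowest of the libraries left out), and in *M*-cKO TE by DESeq2 (551, 493) and with libraries left out (from 46 and 19 without RNA-seq *M*-cKO replicate 1 to 573 and 481 without Ribo-seq *M*-cKO replicate 3). Counts in 1 direction alone also moved by more than 1.5 times: lower calls in *F*-cKO RNA without Ctrl replicate 1 (947, against 1621), in *M*-cKO RNA without Ctrl replicate 3 (1498, against 2394) and between the knockouts by RNA without *M*-cKO replicate 1 or 2 (1498 and 1500, against 2403), and higher calls in *M*-cKO RPFs by DESeq2 (1615, against 1020). For *F*-cKO TE, leaving out Ribo-seq *F*-cKO replicate 3 called 4 genes upward and 11 downward.

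With the replicate block, 3 members were called in *F*-cKO RNA, 4 in *M*-cKO RNA, 2 between the knockouts (*Alkbh1* was lost, adjusted *P* = 0.0647 by edgeR), and 1 in *M*-cKO RPFs, and it changed no other call of a member. Same-numbered RNA-seq and Ribo-seq libraries deviated together in Ctrl (0.11 to 0.265) and *M*-cKO (0.103 to 0.328) but not in *F*-cKO (−0.276 to −0.0186). A fit pairing them in *M*-cKO, added after seeing the data, called 283 genes higher and 173 lower in TE, and 0 members.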

Other observations

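Markers of 2 other tissues varied between libraries. Choroid plexus markers (4 genes) summed to 69.2, 799 and 316 FPKM in the RNA-seq libraries of Ctrl. Their sums lay between 271 and 388 FPKM for *F*-cKO, and between 430 and 589 FPKM for *M*-cKO. Over the 9 Ribo-seq libraries the same sum ran from 211 to 1964 RPKM. Erythroid markers (6 genes) lay between 486 and 707 FPKM for *M*-cKO, within the Ctrl range of 475 to 878 FPKM. Ctrl replicate 2 held the highest sum of both lists among the Ctrl libraries in each assay.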
